A study of Caenorhabditis elegans with 5 samples.

Results

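The X chromosome windows of low H3K9me3 (trimethylation of histone H3 at lysine 9) are 13593 windows of 1 kb out of 100270 in the deposited table of Caenorhabditis elegans. They were chosen by position and by an H3K9me3 tier in that table, with no use of the RNA values described here. A window was taken if it lay on X from 500 kb onwards (the left tip of X, rich in H3K9me3, was thus kept out), had a tier from 5 to 8, and carried no mark for H3K9me3 loss in a mutant, no mark as a germline nuclear RNAi target (GRTS or GRH, the lists of loci silenced or methylated in dependence on this pathway) and no mark as misannotated. Of 17719 X windows, 500 lay left of the limit and 3534 of the others were in tiers 1 to 4. A further 92 were marked misannotated, none of the rest carried another mark, and the members were 76.7% of all X windows. They were set beside the 60356 windows of the same tiers on the 5 autosomes, chosen with the same marks.

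Nascent RNA was measured by pre-mRNA-seq in 5 genotypes of young adult worms grown on OP50 bacteria at 19 °C. In this assay chromatin is immunoprecipitated with an antibody (ab5095) against the elongating form of RNA polymerase II that carries phosphate on serine 2 of the repeats at its tail, and the RNA held on it is sequenced. The strains were N2 wild type (WT), hrde-1(tm1200), set-32(ok1457), the double mutant met-2(n4256) set-25(ok5021), and a triple mutant that joins set-32(ok1457) to this double mutant. There was 1 library per genotype, so no value has a replicate error and no difference was tested, and intervals cover counting error alone. WT, hrde-1 and met-2 set-25 belong to one set of library codes and set-32 and the triple mutant to another, so that set-32 against WT also crosses sets. The table names no genes, and neither the mutated genes nor tissue markers were checked.

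The X chromosome of C. elegans differs from the autosomes in both of the animal's cell lineages. In the hermaphrodite germline X is largely kept silent and holds few germline genes, while in somatic cells of the hermaphrodite both X copies are active and are turned down by the dosage compensation complex. H3K9me3 lies mostly on autosome arms and on the left tip of X. MET-2 (mono- and dimethylation), SET-25 (trimethylation) and SET-32 are H3K9 methyltransferases, and HRDE-1 is the Argonaute protein of germline nuclear RNAi. The libraries came from whole animals, in which fewer cells of a type and less RNA per cell cannot be told apart.

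The tier is not defined in the sources used here, and its direction was read from the marks. Of all windows in tier 1, 99% were marked for H3K9me3 loss in both replicates of the triple mutant, against 50.9% in tier 3, 0.928% in tier 4, 0.00397% in tier 5 and 0% in tiers 6 and 7. Tier 8 was 97.5% misannotated windows and gave no member. The label therefore holds in the sense that the windows lie below the 25.5% of the genome in tiers 1 to 4, and it covers most of X. Of the members, 6413 (47.2%) were in tier 5, 6153 (45.3%) in tier 6 and 1027 (7.56%) in tier 7. On the autosomes tier 7 was the largest, with 22771 windows (37.7%), so the same tiers were mixed differently. The members formed 1680 runs of adjacent windows, with a median of 4 kb and a longest run of 76 kb.

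The libraries held between 323796 reads (triple mutant) and 1096378 (WT), as recovered from the steps of the RPKM values. Reads of the rRNA gene windows took 4.66% of WT, 5.75% of met-2 set-25, 8.93% of hrde-1, 27.9% of set-32 and, highest, 37.4% of the triple mutant. One read in a window was worth 0.912 RPKM in WT, 1.49 in met-2 set-25, 1.47 in hrde-1, 1.80 in set-32 and 3.09 in the triple mutant. The members held 57365 reads in WT, 41709 in met-2 set-25, 34608 in hrde-1, 20896 in set-32 and 12282 in the triple mutant. Without the rRNA windows this was 5.49%, 6.61%, 5.60%, 5.21% and 6.06% of the reads, in the same order. The larger shares were in the strains that lack both MET-2 and SET-25.

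X windows were transcribed at a low level in every library. The mean RPKM over the members was 3.85 in WT, 4.58 in met-2 set-25, 3.75 in hrde-1, 2.76 in set-32 and 2.79 in the triple mutant. Autosome windows of the same tiers had means of 11.8, 11.6, 10.8, 8.34 and 7.37 RPKM. The X to autosome level ratio, in which depth and rRNA share cancel, was 0.326 in WT (95% counting interval 0.323 to 0.329), 0.396 in met-2 set-25 (0.392 to 0.400), 0.347 in hrde-1 (0.343 to 0.350), 0.331 in set-32 (0.326 to 0.336) and 0.379 in the triple mutant (0.372 to 0.386). In all 5 libraries X thus stood below 0.4 of the autosomes, and the 2 strains without MET-2 and SET-25 had the higher ratios.

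The gap between X and autosomes came with the tier. In WT the mean level on X was 4.04 RPKM in tier 5, 3.72 in tier 6 and 3.44 in tier 7, nearly flat. On the autosomes it was 4.45, 6.81 and 22.0 RPKM, so that tier 7 windows were the most transcribed there and not on X. The WT ratio of X to autosomes was accordingly 0.907 in tier 5, 0.547 in tier 6 and 0.157 in tier 7. The share of WT windows at 20 RPKM or more showed the same split, with 4.37% of X and 5.12% of autosome windows in tier 5 and 2.43% of X against 36.8% of autosome windows in tier 7. In tier 5, X and autosome windows were also alike in silence, 20.5% and 21.3% having no read in any library, whereas in tier 7 these were 15.3% and 2.94%.

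The order of tiers was the same in each mutant. The ratio in tier 5 was 0.915 in met-2 set-25, 0.914 in hrde-1, 0.781 in set-32 and 0.757 in the triple mutant. In tier 6 it was 0.626, 0.581, 0.491 and 0.513, and in tier 7 it was 0.205, 0.150, 0.155 and 0.208, in the same order of strains. With the autosome means weighted to the tier mix of X, the ratio was 0.563 in WT, 0.632 in met-2 set-25, 0.585 in hrde-1, 0.521 in set-32 and 0.548 in the triple mutant. After this weighting met-2 set-25 was still the highest, and the triple mutant lay above set-32 and below WT.

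**Figure D1:**
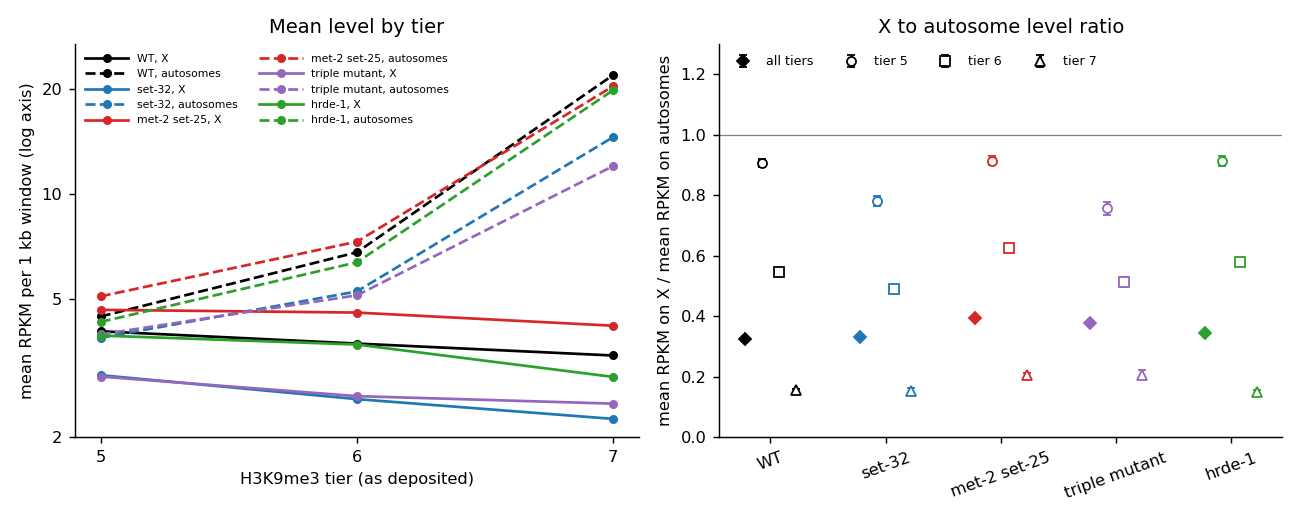
Left, mean RPKM per 1 kb window (log axis) in tiers 5, 6 and 7 for each library, on X (solid) and on the autosomes (dashed). Right, ratio of the X mean to the autosome mean over all tiers (filled) and in each tier (open), with 95% counting intervals; X stays near its tier 5 level (WT 4.04 to 3.44 RPKM) while the autosomes rise (WT 4.45 to 22.0 RPKM), and the ratio drops to between 0.150 and 0.208 in tier 7.

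Most of the members carried few reads, and a small part carried much of the signal. In WT 39.2% of X windows were at 0, with 39.6% in met-2 set-25, 46.4% in hrde-1, 55.4% in set-32 and 62.1% in the triple mutant, against 26.3%, 25.6%, 31.1%, 36.9% and 43.8% of the autosome windows. A share at 0 follows depth, and the share expected to hold a read at the depth of the shallowest library was 31.5% in WT, 37.1% in met-2 set-25, 31.9% in hrde-1, 31.0% in set-32 and 37.9% in the triple mutant on X. On the autosomes the same shares were 50.8%, 56.1%, 51.5%, 50.5% and 56.2%. By this measure windows with a read were more frequent in the 2 strains that lack MET-2 and SET-25, on X and on the autosomes alike. In the triple mutant any fraction of a read shared with other places counts as a read. In the deeper libraries such fractions count for less. How much of the higher share in the triple mutant this gives was not tested.

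No read was seen in any of the 5 libraries in 2701 members (19.9%, against 13.4% of autosome windows), and 3204 members (23.6%, against 45.9%) had reads in all 5. The windows without a read formed 1524 runs, 941 of them a single window and 73 of 5 kb or more. The longest was 14 kb, at X 14462001 to 14476000 (all positions are in the ce6 build, counted from 1). A window at 0 is a window below the depth of these libraries, which is at best 0.912 RPKM for 1 read.

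In WT 482 members (3.55%) were at 20 RPKM or more, against 18.0% of the autosome windows. There were 517 (3.80%) in met-2 set-25, 394 (2.90%) in hrde-1, 212 (1.56%) in set-32 and 251 (1.85%) in the triple mutant. On the autosomes the shares were 17.5%, 16.1%, 9.79% and 7.02%, in the same order. The lower shares in set-32 and the triple mutant were thus not particular to X. Of the 482 WT windows, 309 were also at 20 RPKM or more in met-2 set-25, 292 in hrde-1, 174 in set-32 and 152 in the triple mutant. None of them was at 0 in met-2 set-25 or hrde-1, while 4 were in set-32 and 27 in the triple mutant, the shallowest library. Since these windows were chosen by their WT value, lower values elsewhere are in part given by the choice. At 20 RPKM or more in every library were 109 members, and 824 were so in at least 1 library.

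Of the 482 high windows on X, 292 (60.6%) had a neighbour of the same class, against 78.7% of 10852 autosome windows, where such windows are also far denser (18.0% against 3.55%), and the 2 shares were not compared at equal density. They made 294 runs, of which 190 were single windows and 6 were of 5 kb or more. The highest 1% of members (136 windows) held 22.3% of the X sum in WT, 22.3% in met-2 set-25, 26.8% in hrde-1, 24.2% in set-32 and 22.4% in the triple mutant. On the autosomes the same share was 15.7% in WT, 14.1% in met-2 set-25, 15.9% in hrde-1 and 21.1% in set-32. In the triple mutant it was 28.7%, which was above that of X.

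A single block led the chromosome. The run at X 16931001 to 16945000, 14 kb long, had a mean of 255 RPKM in WT, 355 in met-2 set-25, 425 in hrde-1, 190 in set-32 and 145 in the triple mutant. It held 13 of the 28 members at 100 RPKM or more in WT, and 6.82% (WT), 7.99% (met-2 set-25), 11.7% (hrde-1), 7.08% (set-32) and 5.35% (triple mutant) of the whole X sum. Its first window was the highest member in WT, with 790 RPKM, and had 1288 RPKM in met-2 set-25, 1294 in hrde-1, 571 in set-32 and 668 in the triple mutant. The block was higher in hrde-1 than in WT by 1.67 times (1.60 to 1.74) and in met-2 set-25 by 1.39 times (1.33 to 1.46), and lower in set-32 than in WT, at 0.745 (0.701 to 0.791), and in the triple mutant than in set-32, at 0.763 (0.695 to 0.837). Over all autosome windows these ratios were 0.917, 0.980, 0.707 and 0.883, in the same order. Relative to the autosomes the block was thus not lower in set-32. Values of the other named windows are likewise not adjusted for these autosome ratios. In 10 of its 14 windows the values hold fractions of reads, that is reads that also match elsewhere, so they cannot be placed on X alone. None of its windows carried a GRTS or GRH mark, as the choice of members requires. Unweighted and level-weighted double ratios are given with and without it below. Values by tier, tier-weighted values and level classes are given with it alone.

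Of the other windows at 100 RPKM or more in WT, those at X 3403001 to 3404000 and X 3572001 to 3573000 also held shared reads. The first was at 359 RPKM in WT, 166 in met-2 set-25, 436 in hrde-1, 444 in set-32 and 175 in the triple mutant. The second was at 228 RPKM in WT, 92.5 in met-2 set-25, 194 in hrde-1, 260 in set-32 and 103 in the triple mutant. Both were thus low in the 2 strains that lack MET-2 and SET-25 and stayed high in set-32. The windows at X 3408001 to 3409000 and X 11200001 to 11201000, again with shared reads, were likewise lower in those strains, with 181 and 112 RPKM in WT, 139 and 75.4 in met-2 set-25, and 135 and 78.8 in the triple mutant, against 228 and 135 in set-32 and 232 and 137 in hrde-1.

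Outside the block, the highest run of unshared reads was at X 6620001 to 6623000, with 209 RPKM in WT, 46.8 in met-2 set-25, 81.0 in hrde-1, 75.5 in set-32 and 18.5 in the triple mutant. It was lower than WT at a ratio of 0.387 (0.325 to 0.460) in hrde-1, 0.224 (0.178 to 0.278) in met-2 set-25 and 0.361 (0.296 to 0.437) in set-32, and lower in the triple mutant than in set-32 at 0.246 (0.141 to 0.404), where the choice by WT level favours a high WT value. The run at X 6089001 to 6092000 varied less, with 140 RPKM in WT, 106 in met-2 set-25, 112 in hrde-1, 96.4 in set-32 and 70.0 in the triple mutant.

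On X as a whole, met-2 set-25 was higher than WT relative to the autosomes. The sum over the members was 1.19 times that of WT, while the sum over autosome windows was 0.980 times, a double ratio (X ratio over autosome ratio) of 1.21 (1.20 to 1.23). Over all tiers together each of the 5 autosomes was below X, with ratios of 0.951 (I), 0.986 (II), 0.949 (III), 0.985 (IV) and 1.05 (V). The triple mutant against set-32, a pair that shares no library with this one, gave 1.01 on X and 0.883 on the autosomes, a double ratio of 1.14 (1.12 to 1.17), and over all tiers each autosome (0.841 to 0.928) again lay below X. These intervals cover counting error alone, and how far 2 libraries of 1 genotype differ in this ratio was not measured.

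The size of this difference depended on which autosome windows were set against X. In tier 5 the double ratio of met-2 set-25 to WT was 1.01 (0.988 to 1.03), in tier 6 1.14 (1.12 to 1.17) and in tier 7 1.31 (1.25 to 1.38). For the triple mutant to set-32 it was 0.969 (0.936 to 1.00), 1.05 (1.01 to 1.09) and 1.34 (1.23 to 1.46). The X ratio itself hardly moved with the tier in met-2 set-25, with 1.15, 1.23 and 1.22, whereas the autosome ratio was 1.14, 1.07 and 0.929. Within tier 5 X was not the highest chromosome, as met-2 set-25 to WT was 1.25 on V and 1.16 on II against 1.15 on X, and the triple mutant to set-32 was 1.10 on II, 1.05 on III and 1.05 on V against 0.991 on X. In tier 6 chromosome II (1.08) was above X (1.02) for the triple mutant, and all autosomes (1.02 to 1.17) were below X (1.23) for met-2 set-25. In tier 7 X (1.22 and 1.11) was above every autosome (0.919 to 0.960, and 0.802 to 0.843) in both pairs. With the autosomes weighted to the tier mix of X the double ratios were 1.08 for met-2 set-25 and 1.02 for the triple mutant. Weighted instead to the levels of X, in classes set by a library outside the pair, they were 1.08 and 1.06. Both were above 1 in these 2 weightings, at less than the unweighted size, and in tier 5 neither interval lay above 1.

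In hrde-1 and set-32 the unweighted double ratios were nearer to 1. The sum over X in hrde-1 was 0.975 times WT and that over the autosomes 0.917 times, a double ratio of 1.06 (1.05 to 1.08). Without the 14 kb block it was 1.01 (0.993 to 1.02), so the excess of hrde-1 on X lay in that block. In set-32 the sums were 0.718 and 0.707 times WT, a double ratio of 1.01 (0.998 to 1.03), which turned to 0.883 with the tier mix of X, further from 1 than that of met-2 set-25 (1.08), and to 0.999 with its level mix. By tier it was 0.861 (0.840 to 0.883) in tier 5, 0.897 (0.874 to 0.921) in tier 6 and 0.991 (0.930 to 1.06) in tier 7 for set-32, and 1.01 (0.986 to 1.03), 1.06 (1.04 to 1.09) and 0.960 (0.910 to 1.01) for hrde-1. For met-2 set-25 the double ratio without the block was 1.20 and for the triple mutant 1.17. Weighted to the levels of X and without the block, it was 1.05 for met-2 set-25 and 1.07 for the triple mutant. For hrde-1 it was then 0.988 and for set-32 1.02.

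**Figure D2:**
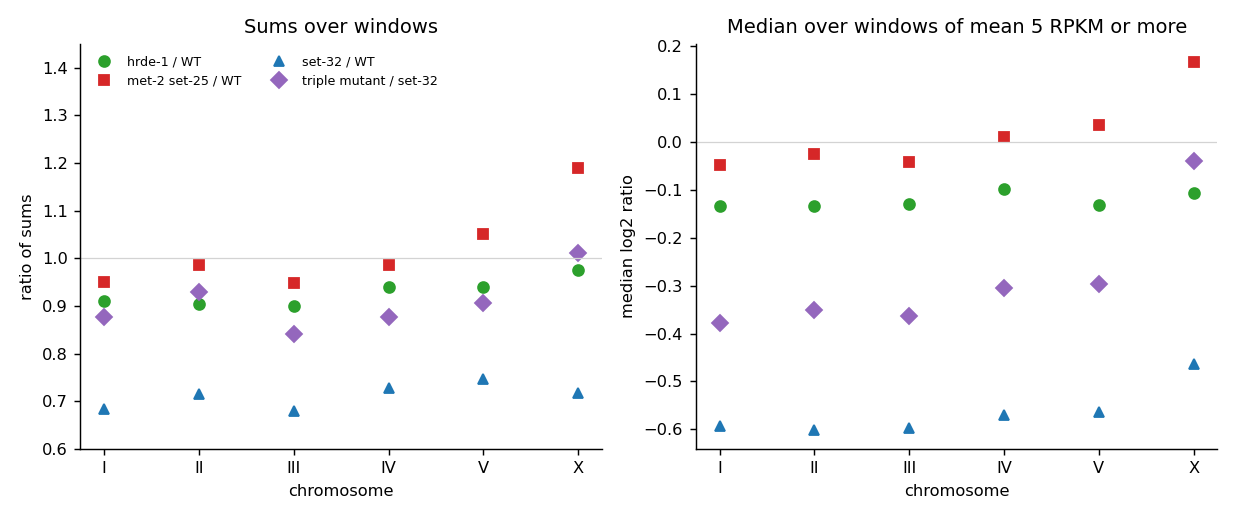
Ratio of sums (left) and median log2 ratio over windows averaging 5 RPKM or more (right) on each chromosome for the 4 pairs of libraries, windows of tiers 5 to 7. X is the highest chromosome for met-2 set-25 to WT (1.19, against 0.949 to 1.05) and for the triple mutant to set-32 (1.01, against 0.841 to 0.928), over all tiers, and for hrde-1 to WT it is the highest by sums alone (0.975, with the 14 kb block included).

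Medians over windows, which no single block can lead, also put X above the autosomes in all 4 pairs, though barely so in hrde-1. They are over all tiers and were not weighted to the tier mix of X. With that weighting the double ratio of sums was 0.883 for set-32. It was 1.08 for met-2 set-25, 1.02 for the triple mutant and 1.03 for hrde-1. Over the 2519 members (18.5%) with a mean of at least 5 RPKM across the libraries, the median log2 ratio after adding 1 RPKM was 0.17 for met-2 set-25 to WT, against -0.02 on the autosomes, and -0.04 for the triple mutant to set-32, against -0.34. For hrde-1 to WT the medians were -0.11 and -0.13, and for set-32 to WT -0.46 and -0.58. The X median thus lay above the autosome median by 0.19, 0.30, 0.02 and 0.12 on the log2 scale. With no minimum level the differences were 0 for the first 3 pairs, where most windows hold 0 or a few reads, and 0.21 for set-32. In met-2 set-25 58.0% of these members were above WT, against 48.8% of the autosome windows.

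When windows of all tiers were classed by level, the excess of X in met-2 set-25 lay in windows of moderate to high level. For met-2 set-25 to WT, with classes set by the set-32 library, windows at 0 had ratios of sums of 1.42 on X and 1.54 on the autosomes, and windows under 5 RPKM 1.23 and 1.26. From 5 to under 20 RPKM (2007 members) the ratios were 1.12 and 1.01, from 20 to under 50 (161 members) 1.14 and 0.886, from 50 to under 100 (30 members) 0.984 and 0.824, and at 100 or more (21 members, of which 12 in the block) 1.27 and 0.912. Low windows thus had higher values in met-2 set-25 on X and autosomes alike, with no excess on X, and in the classes from 5 RPKM on X had the higher ratios. The classes here and below were not matched to the tier mix of X, so level and tier cannot be told apart in them. In tier 5 the double ratio of met-2 set-25 to WT was 1.01 (0.988 to 1.03).

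The triple mutant against set-32, classed by WT, also had its highest ratios in the low classes, where X was here above the autosomes. The ratios were 1.50 on X and 1.37 on the autosomes in windows at 0, 1.23 and 1.17 under 5 RPKM, 0.967 and 0.871 from 5 to under 20 (2219 members), 0.948 and 0.807 from 20 to under 50 (410 members), and 0.907 and 0.882 from 50 to under 100 (44 members). At 100 RPKM or more (28 members) X was the lower, with 0.675 against 0.898. For hrde-1 to WT the classes under 100 RPKM ran from 0.876 to 0.974 on X and from 0.864 to 0.986 on the autosomes, and the highest class stood out with 1.53 on X against 0.995. Of the 21 members in that class 12 lie in the 14 kb block, and its ratio was not computed without the block. For set-32 to WT, classed by hrde-1, all classes together ran from 0.690 to 0.819 on X and from 0.640 to 0.926 on the autosomes.

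**Figure D3:**
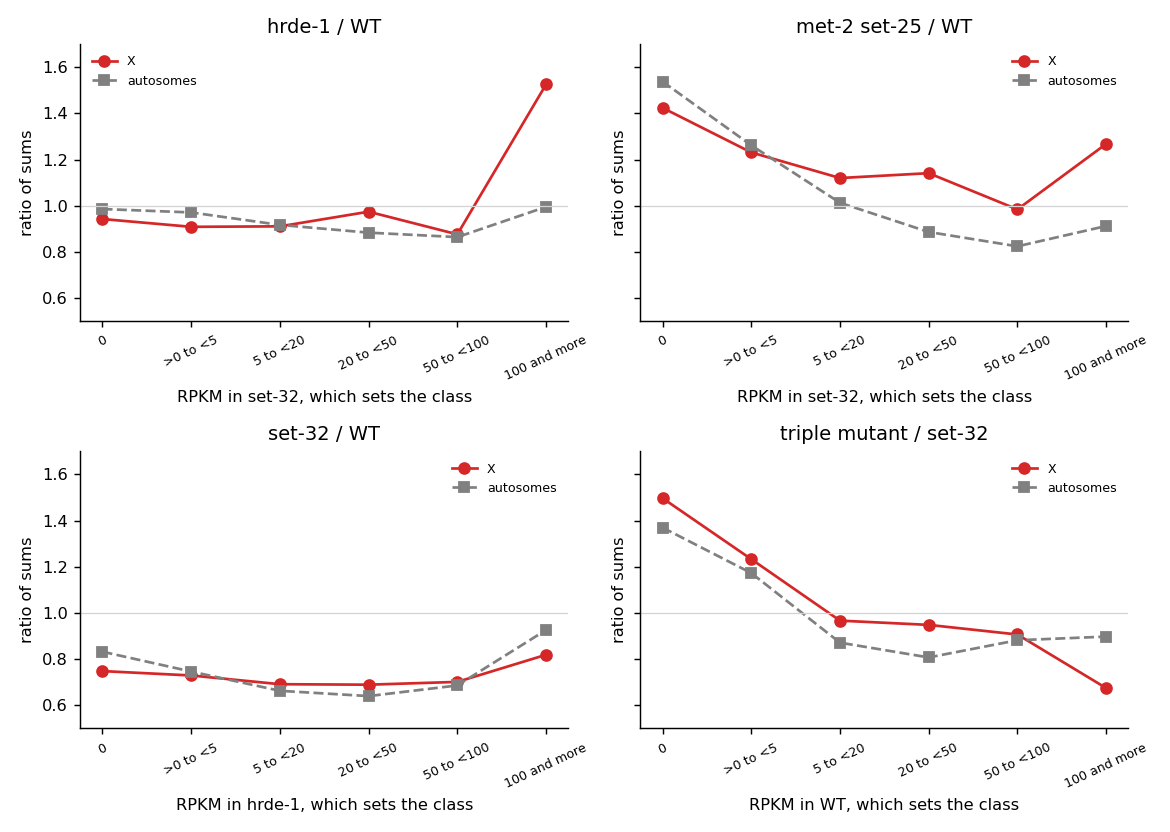
Ratio of summed RPKM in each level class for the 4 pairs, on X (circles) and on the autosomes (squares), with the class set by a library outside the pair. For met-2 set-25 to WT the lines cross, from 1.42 on X against 1.54 at 0 RPKM to 1.14 against 0.886 between 20 and 50 RPKM, and for hrde-1 X departs from the autosomes in the class of 100 RPKM and more (1.53 against 0.995). Of the 21 members in that class 12 lie in the 14 kb block. The classes are over all tiers.

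WT level on X was spread over the classes differently from the autosomes. Windows above 0 and under 5 RPKM were 40.9% of the members and held 20.4% of the X sum, against 5.17% of the autosome sum. Windows from 5 to under 20 RPKM were 16.3% of the members and held 40.5%, against 23.5% on the autosomes. Windows from 20 to under 50 were 3.02% and held 21.8%, against 34.2%. The 44 members from 50 to under 100 held 5.52% and the 28 at 100 or more 11.7%, against 18.9% and 18.2%. The class with the largest share of the sum was thus 5 to under 20 RPKM on X and 20 to under 50 on the autosomes.

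Along X the level varied by a little over 2-fold outside the 14 kb block. In bins of 1 Mb the WT mean ran from 2.38 RPKM (8 to 9 Mb) to 5.15 (6 to 7 Mb), and reached 8.68 in the bin from 16 to 17 Mb that holds the 14 kb block, or 3.66 without it. The share of members at 20 RPKM or more in WT ran from 0.621% in the first bin to 5.46% in the second. For met-2 set-25 to WT the ratio of sums was above the autosome ratio of 0.980 in 18 of 18 bins, from 1.01 (10 to 11 Mb) to 1.37 (8 to 9 Mb). For the triple mutant to set-32 it was above the autosome ratio of 0.883 in 15 of 18 bins, from 0.829 (3 to 4 Mb) to 1.19 (15 to 16 Mb). Against these autosome ratios, the higher values were thus spread over the chromosome and did not lie in one region. The autosome ratios here and below are over all tiers, and the bins were not compared at the tier mix of X. With that mix the double ratios over all of X were 1.08 for met-2 set-25 and 1.02 for the triple mutant.

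For hrde-1 to WT 10 of 18 bins were above the autosome ratio of 0.917, from 0.812 (4 to 5 Mb) to 1.37 (16 to 17 Mb), and without the block the highest was 1.01 (9 to 10 Mb). For set-32 to WT 9 of 18 were above 0.707, from 0.638 (the first bin) to 0.841 (15 to 16 Mb). At the left limit of the set, the 39 members in the first 100 kb had a WT mean of 2.72 RPKM, and the 30 windows of the same tiers in the 100 kb just outside had 0.443. Across the other limit, the X windows of tier 4 had a WT mean of 9.03 RPKM, against 4.04 in tier 5, with medians of 1.00 and 0.91.

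**Figure D4:**
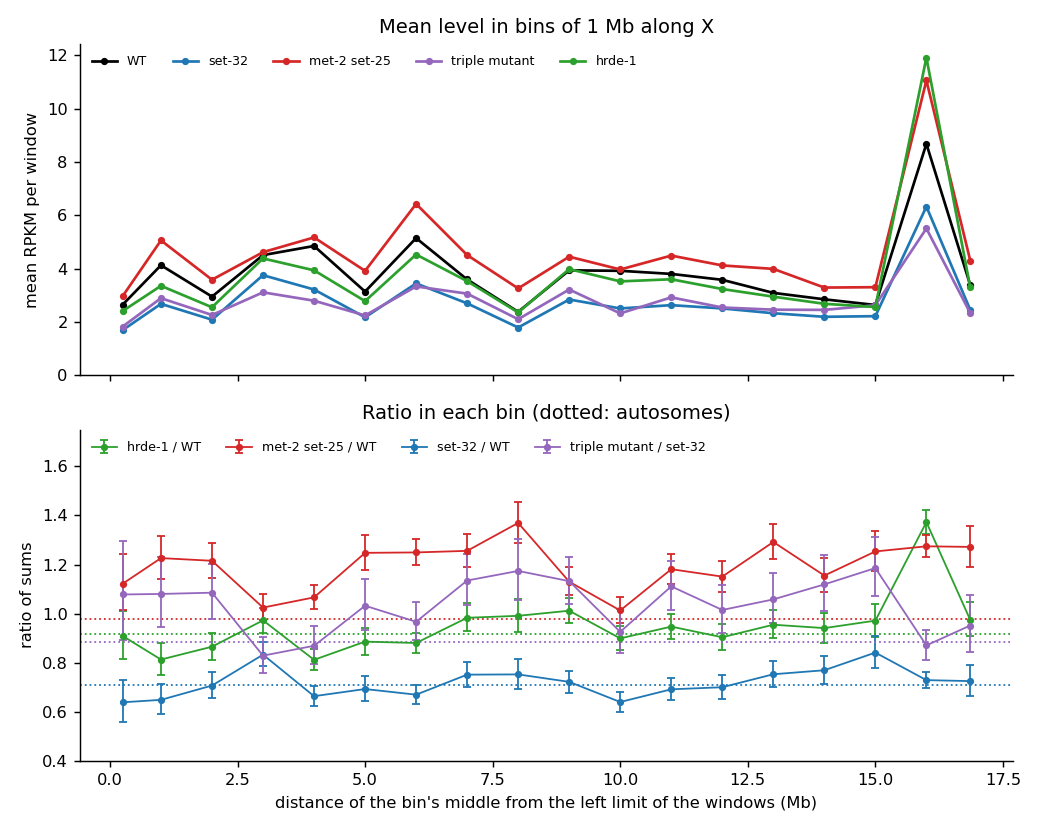
Mean RPKM per member window in bins of 1 Mb (top) and ratio of sums in each bin with 95% counting intervals (bottom), against the distance of the bin from the left limit of the set in Mb; dotted lines are the autosome ratios. All 18 bins of met-2 set-25 to WT lie above the autosome ratio of 0.980. The autosome ratios are over all tiers and are not weighted to the tier mix of X. The peak near the right end is the bin with the 14 kb block (hrde-1 to WT 1.37).

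Single windows were called by size alone, where 1 RPKM was added, the libraries then differed 2-fold or more, and the larger value was 20 RPKM or more. A value of 20 RPKM is 21.9 reads in WT, 13.6 in hrde-1, 13.4 in met-2 set-25, 11.1 in set-32 and 6.48 in the triple mutant, so many calls rest on few reads. Among all kept windows of the genome 1.19% were called higher in met-2 set-25 than in WT and 1.26% lower, 0.745% and 2.51% in the triple mutant against set-32, 0.749% and 1.1% in hrde-1 against WT, and 0.402% and 4.27% in set-32 against WT. Since X has fewer windows of 20 RPKM, shares are given below over windows that reached that level in either library. In met-2 set-25 133 members were higher than in WT, 19.3% of 690, against 6.31% of autosome windows and 7.29% of all kept windows. Lower were 66 (9.57%, against 6.44% and 7.7%). Among called windows 66.8% were higher on X and 49.5% on the autosomes. These shares and those of the calls below are over all tiers and were not matched to the tier mix of X. Of the windows at 20 RPKM or more in WT, 8374 of 10852 on the autosomes were in tier 7, against 25 of 482 on X. How far the tier mix gives the higher share on X was not tested.

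In the triple mutant 58 of 339 members (17.1%) were higher than in set-32 and 57 (16.8%) lower, where 7.63% and 27.2% of autosome windows and 8.04% and 27.1% of all kept windows were. In hrde-1 33 of 584 (5.65%) were higher than in WT and 85 (14.6%) lower, against 2.22% and 6.08% on the autosomes and 4.8% and 7.08% of all kept windows. In set-32 21 of 520 (4.04%) were higher than in WT and 190 (36.5%) lower, against 1.98% and 31.5% on the autosomes and 2.83% and 30.0% of all kept windows. Callable windows were lower on X, with a median larger value of 28.4 RPKM in the pair of met-2 set-25 and WT against 33.5 on the autosomes. Among windows of 20 to under 50 RPKM alone met-2 set-25 had 18.7% higher on X and 7.14% on the autosomes.

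The direction of calls moved with the scaling of the libraries. With each pair rescaled to a median ratio of 1 on the autosomes, the share of higher windows among those called on X was 67.7% in met-2 set-25, 43.3% in hrde-1 (28.0% before), 60.7% in set-32 (9.95% before) and 79.4% in the triple mutant (50.4% before). On the autosomes it became 53.2%, 48.3%, 48.1% and 50.8%. The rescaling multiplies a whole library by 1 factor (1.50 for set-32 and 1.27 for the triple mutant), which alone turned the split in set-32, whose tier-weighted double ratio was 0.883.

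Most windows with higher calls in met-2 set-25 were isolated, the 133 making 102 runs of which 4 were of 3 windows or more, and the 3 longest are given here. At X 6533001 to 6537000 (tiers 5 and 6) the mean was 98.3 RPKM in WT, 275 in met-2 set-25, 119 in hrde-1, 62.4 in set-32 and 70.3 in the triple mutant. It was 2.80 times WT (2.48 to 3.16) in met-2 set-25, and 1.13 (0.854 to 1.48) in the triple mutant against set-32. At X 1486001 to 1491000 it was 26.5 RPKM in WT, 66.6 in met-2 set-25, 31.8 in hrde-1, 46.0 in set-32 and 32.1 in the triple mutant, a ratio of 2.52 (2.03 to 3.12) for met-2 set-25. At X 11967001 to 11971000 the values were 22.8 RPKM in WT, 73.5 in met-2 set-25, 33.9 in hrde-1, 35.0 in set-32 and 39.4 in the triple mutant, where WT is low by the choice of the run.

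Close to the last of these, at X 11962001 to 11965000, was the longest run called higher in the triple mutant. It was at 20.4 RPKM in WT, 45.3 in met-2 set-25, 24.1 in hrde-1, 15.6 in set-32 and 41.2 in the triple mutant. It was higher in both pairs, by 2.22 times (1.60 to 3.09) in met-2 set-25 and 2.64 times (1.57 to 4.51) in the triple mutant. The window at X 13144001 to 13145000 also had its higher values in these strains, with 18.2 RPKM in WT, 68.7 in met-2 set-25, 19.2 in hrde-1, 5.39 in set-32 and 43.2 in the triple mutant. It was chosen by its ratio of the triple mutant to set-32, which rests on 14 reads against 3.

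The runs called lower than WT were chosen for that, and hrde-1, set-32 and met-2 set-25 are all set against the same WT library, so that a high WT value would make them low together. The run at X 5938001 to 5942000 was at 26.0 RPKM in WT, 40.7 in met-2 set-25, 10.7 in hrde-1, 5.84 in set-32 and 8.49 in the triple mutant, with met-2 set-25 above WT. Another, at X 12628001 to 12632000, was at 23.3 RPKM in WT, 16.0 in met-2 set-25, 7.0 in hrde-1, 12.6 in set-32 and 4.63 in the triple mutant, and the run at X 16410001 to 16413000 was at 36.5, 12.4, 17.7, 16.8 and 6.18 RPKM. Of the longer runs of high WT level, that at X 4845001 to 4851000 was at 50.9 RPKM in WT and between 18.5 (triple mutant) and 34.7 (set-32) in the mutants, and it was chosen by its WT value.

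The largest ratios of single windows rested on few reads. At X 7377001 to 7378000 met-2 set-25 had 25.4 RPKM (17 reads) against 0.91 (1 read) in WT, 1.47 in hrde-1, 0 in set-32 and 3.09 in the triple mutant. At X 1491001 to 1492000, beside the run at X 1486001, set-32 had 28.8 RPKM (16 reads) against 0.91 (1 read) in WT, 4.48 in met-2 set-25, 14.7 in hrde-1 and 6.18 in the triple mutant. At X 6051001 to 6052000 WT had 28.3 RPKM (31 reads), met-2 set-25 11.9, hrde-1 2.95 (2 reads), and set-32 and the triple mutant 0.

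The windows called in one pair were set beside the other pair that shares no library with it. Of the 133 members higher in met-2 set-25 than in WT, 12 (9.02%) were also called higher in the triple mutant than in set-32 and 3 lower, and 78 were above set-32 and 55 below, with a median ratio of 1.19 against 0.972 over the 2519 members of moderate level. Of the 66 lower ones, 7 were also lower and 2 higher, with a median of 0.640. Starting from the 58 members higher in the triple mutant, 12 (20.7%) were higher in met-2 set-25, 50 were above WT and 8 below, and the median ratio was 1.67, against 1.12 over the 2519. The 57 lower in the triple mutant had the weakest lean, with a median of 0.944 in met-2 set-25 to WT, 26 above and 31 below, 7 called lower and 3 higher. For higher calls the autosome shares were near these, with 81 of 821 (9.87%) and 81 of 534 (15.2%) called higher in both pairs. Lower calls leaned more on the autosomes. Of those lower in met-2 set-25, 17.2% were also lower in the triple mutant, against 10.6% on X. Those lower in the triple mutant had a median of 0.797 in met-2 set-25 to WT, with 492 above and 1408 below. Most members called in one pair were thus not called in the other, but few members could be called at all. Of 13593 members, 339 reached 20 RPKM in set-32 or the triple mutant, and 690 in WT or met-2 set-25. Over all members the calls were rarer, with 58 higher and 57 lower in the first of these pairs, and 133 and 66 in the second. How many of the called windows were callable in both pairs was not counted, so the part that depth has in the low overlap was not tested. Over the 2519 members Spearman's rho of the log2 ratios of the 2 pairs was 0.14, and 0.18 over the autosome windows, given as a description since windows share libraries.

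**Figure D5:**
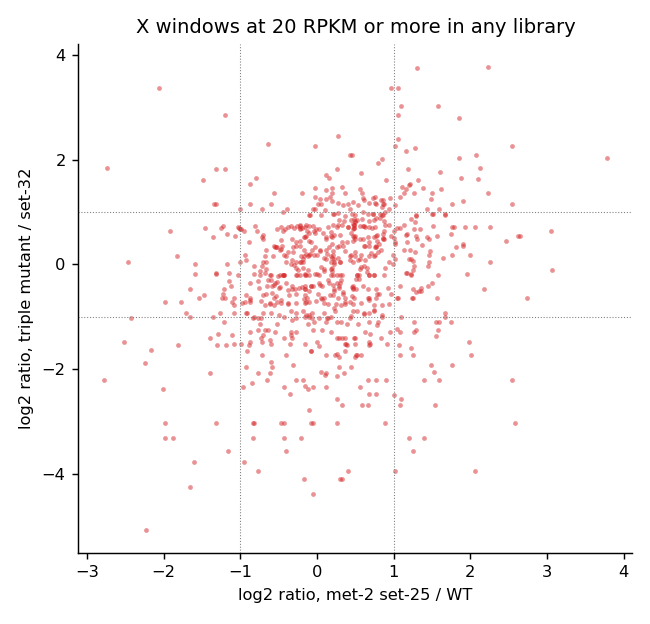
Log2 ratio after adding 1 RPKM of met-2 set-25 to WT against that of the triple mutant to set-32, for the 824 members at 20 RPKM or more in any library; each point is a window and dotted lines mark a ratio of 2 in either direction. The cloud is broad with a weak upward lean, and 12 windows were called higher in both pairs.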

How the data were processed

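Per the submitters' processing notes and the study's methods, reads were aligned to ce6 (WS190) with Bowtie 0.12.7, perfect matches were kept, and a read with several places was divided among them. The authors deposited RPKM per 1 kb window, 1 library per genotype, with a score for the H3K9me3 tier and yes marks for lists. Columns were matched to genotypes by code through the study's list of libraries, and 0 per-sample columns were unmapped. Reads were recovered from the RPKM steps (78.4% to 80.2% of positive values were whole within 0.02 read). Intervals are 95%, Clopper-Pearson for a ratio within a library or between 2 sums of reads, and log-normal for double ratios. They hold counting error alone, as PCR copies are no independent molecules. The ratio of single windows used a pseudocount of 1 RPKM, which understates changes of low windows. Named windows were the highest in WT, the longest runs, the largest and smallest ratios per pair and the extreme bins. Windows at X 3408001, 6089001, 11200001 and 14462001 were named after their values were seen. Members and lists were chosen with earlier results of these data known. Scripts were tested on simulated data and used Python 3.11.15, pandas 2.3.3, SciPy 1.17.1 and Matplotlib 3.10.9.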

Additional observations from a re-analysis of the deposited data

How the results depend on the processing

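Of 127 alternative values, 48 stayed within 1.5 times (counts and shares of bins) or the interval of the main value, 77 moved and 2 reversed, and for all of them the cause was not tested. That interval is the counting interval, but for median log2 ratios it is a binomial interval over X windows, which are not replicates. The weightings to the tier or level mix of X, the settings without the 14 kb block and the calls limited to 20 to under 50 RPKM were chosen after seeing the data. The ratio reversed for set-32 to WT, from 1.01 to 0.883 with the tier mix and 0.999 with the level mix.

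The X to autosome level ratio in WT, met-2 set-25, hrde-1, set-32 and the triple mutant was 0.301, 0.360, 0.303, 0.321 and 0.415 without the highest 1% of windows. It was 0.312, 0.378, 0.312, 0.315 and 0.367 with unshared reads alone, 0.308, 0.367, 0.317, 0.309 and 0.349 against autosome centres, and 0.304, 0.365, 0.306, 0.308 and 0.359 without the block. In tiers 5 and 6 it was 0.689, 0.743, 0.714, 0.614 and 0.620, in tiers 7 and 8 0.157, 0.205, 0.150, 0.155 and 0.208, and with the tier mix of X 0.563, 0.632, 0.585, 0.521 and 0.548. Met-2 set-25 was above WT in each setting, and the triple mutant was above set-32 in each.

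The double ratio of hrde-1 to WT was 1.01 without the highest 1%, 1.00 with unshared reads, 1.03 against autosome centres, 1.01 without the block, 1.03 with the tier mix and 1.04 with the level mix (0.988 without the block). For met-2 set-25 to WT it was 1.19 without the highest 1%, 1.19 against centres, 1.08 with the tier mix and 1.08 with the level mix. For the triple mutant to set-32 it was 1.29 without the highest 1%, 1.02 with the tier mix and 1.06 with the level mix, and for set-32 to WT 1.06 without the highest 1%. With level classes set by set-32 in place of WT, windows at 5 RPKM or more had double ratios of 1.10 (hrde-1) and 1.21 (met-2 set-25), against 1.02 and 1.13, and windows under 5 RPKM had 0.976 in met-2 set-25 against 0.905. Bins of 2 Mb in place of 1 Mb kept the share above the autosome ratio within 1.5 times in all 4 pairs.

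The difference of median log2 ratios was 0.12 for hrde-1 and 0.38 for met-2 set-25 among windows averaging 20 RPKM or more. With no filter it was 0 for met-2 set-25 and for the triple mutant to set-32, and 0.21 for set-32. Higher and lower calls at a ratio of 4 were 2 and 7 (hrde-1), 22 and 10 (met-2 set-25), 3 and 47 (set-32) and 10 and 18 (triple mutant to set-32). With the larger value at 50 RPKM or more they were 3 and 8, 25 and 10, 3 and 18, and 9 and 10. Rescaled to an autosome median ratio of 1, 52 were higher in hrde-1, 153 higher and 99 lower in set-32, and 162 higher in the triple mutant.

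Each genotype had 1 library, so differences between genotypes and between libraries cannot be told apart, and there was no replicate to leave out. No paired analysis was possible with 1 library per genotype, and the labels give no replicate numbers. The triple mutant, with 12282 reads over the members, limits every value below about 20 RPKM, which is 6.48 reads there.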
